A study of Rattus norvegicus with 12 samples.

Results

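The genes described here are those of endoplasmic reticulum (ER) stress and the unfolded protein response (UPR), 35 gene symbols listed by their known roles. The rule takes genes by symbol and uses a measured value only to pick between records of 1 symbol. The list was drawn up with earlier results of these data known. A gene was taken as the record of the expression table that carries its symbol, and the record with the highest mean was used for the 6 symbols with more than 1 record. Of the 35 symbols, 34 were matched to the 22442 records of the table, and all 34 had a mean of at least 1 FPKM and were tested. Pdia4 was not analysed here. By role they were grouped into 12 chaperones and folding factors, 10 genes of the PERK-ATF4 branch, 5 genes of the XBP1 branch and 7 genes of the ATF6 branch and of ER-associated degradation (ERAD). FPKM counts fragments per kilobase of transcript, scaled to the fragments mapped in the library, so levels of different genes can be set side by side per length.

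The cells were fibroblast-like synoviocytes (FLS), the fibroblasts of the joint lining, grown out of the synovium of male Sprague Dawley rats with adjuvant arthritis (AA), which is raised by complete Freund's adjuvant injected into a hind paw, and used at passage 3. The age of the rats is not given. The FCA group was AA FLS in DMEM alone, and the AT01, AT1 and AT10 groups were AA FLS with taurochenodeoxycholic acid (TCDCA), a taurine-conjugated bile acid, at 0.1, 1 and 10 µM for 12 h. Each group had 3 libraries of poly(A) RNA, 12 in all. All groups came from arthritic rats, so none was healthy. None had an agent added to stress the ER, and no vehicle is named for the control. Whether the cells of several rats were pooled, and whether the 3 libraries of a group came from separate rats or cultures, is not stated. The replicate numbers are described only as repeats of the work, so the p-values below measure only the spread between these libraries.

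Secreted and membrane proteins fold in the ER, and 3 membrane sensors respond when unfolded proteins gather there. PERK (Eif2ak3) slows translation while letting ATF4 be made, and ATF4 with CHOP (Ddit3) turns on amino acid and stress genes. IRE1 (Ern1) splices Xbp1 mRNA into the form that encodes the active factor, and ATF6 is cut in the Golgi to release its own factor. XBP1 and ATF6 raise chaperone, translocation and ERAD genes. Synovial fibroblasts secrete much matrix, and a related bile acid, tauroursodeoxycholic acid, is widely used as a chemical chaperone against ER stress. FPKM of whole genes shows neither the splicing of Xbp1, nor the cleavage of ATF6, nor the phosphorylation of PERK.

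Promoters of the UPR genes are shown first because DNA elements known for these branches were searched in them. RefSeq windows on assembly GRCr8, from 250 bases before to 50 bases after the start of transcription, matched 28 of the 35 symbols, with 2 windows for Hyou1 and so 29 in all. Motifs were searched as plain letters on both strands. The ER stress response element (ERSE, the letters CCAAT and CCACG with 9 bases between them) stood in 7 of the 29 windows (24.1%) and in 22 of all 33469 rat windows of the same length (0.0657%). ERSE-II (ATTGG and CCACG with 1 base between them) stood in 3 of 29 (10.3%) and in 17 of 33469 (0.0508%). The letters TGACGTG at the core of the UPR element (UPRE) were found in the windows of Hspa5 and Hyou1 (6.9%, against 1.81% of all windows). The C/EBP-ATF response element (CARE, TGATGNAAN), the letters bound by ATF4 with a partner, was found for Chac1, Herpud1 and Trib3 (10.3%, against 3.97%). ERSE holds by construction the letters CCAAT and CCACG, which were found on their own in 75.9% and 79.3% of the UPR windows and in 37.5% and 31.6% of all windows. The counts over all windows include the UPR windows. The elements and the genes were both chosen for their known part in this response, so an excess is built in and is no result of these data. A match describes the letters and shows no binding.

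The windows with an ERSE belonged to Hspa5, Hsp90b1, Calr, Canx, Creld2, Dnajc3 and Xbp1. They are printed with 12 bases on each side, 5′ to 3′ along the gene, with the element in capitals. Where the capitals begin CGTGG, the element lies on the opposite strand. The Hsp90b1 stretch holds 2 of them. The Herpud1 line shows an ERSE-II, and the Trib3 and Chac1 lines show a CARE, read on the opposite strand in both.
Hspa5, chr3:38452961-38453003, plus strand: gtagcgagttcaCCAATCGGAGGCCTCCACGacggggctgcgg
Hsp90b1, chr7:23012335-23012481, minus strand: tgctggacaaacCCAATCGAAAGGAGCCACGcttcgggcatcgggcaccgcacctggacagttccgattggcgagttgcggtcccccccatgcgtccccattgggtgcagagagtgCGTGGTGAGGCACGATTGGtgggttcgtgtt
Calr, chr19:40213123-40213165, plus strand: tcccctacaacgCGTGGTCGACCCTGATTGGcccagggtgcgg
Canx, chr10:35158057-35158099, minus strand: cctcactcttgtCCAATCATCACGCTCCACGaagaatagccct
Creld2, chr7:121789227-121789269, plus strand: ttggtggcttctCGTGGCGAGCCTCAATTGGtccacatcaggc
Dnajc3, chr15:102432522-102432564, plus strand: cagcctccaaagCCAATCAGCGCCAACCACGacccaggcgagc
Xbp1, chr14:84604546-84604588, plus strand: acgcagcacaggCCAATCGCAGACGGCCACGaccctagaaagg
Herpud1, chr19:10614809-10614843, minus strand: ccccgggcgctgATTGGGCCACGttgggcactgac
Trib3, chr3:161275535-161275567, minus strand: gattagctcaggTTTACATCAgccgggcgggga
Chac1, chr3:126795951-126795983, plus strand: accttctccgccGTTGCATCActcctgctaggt

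The 34 genes were expressed over a wide range, from a mean of 1.29 FPKM for Atf3 to 659.5 FPKM for Calr, and together they made up between 0.876% and 0.980% of the FPKM sum of a library. In each branch the order of the genes by level was led by Calr, Atf4, Sec61b and Herpud1, and Sdf2l1, Atf3, Dnajb9 and Atf6 were the lowest. The share of the 34 genes was 0.919% ± 0.0262 (SD, n = 3) in FCA, 0.904% ± 0.0241 in AT01, 0.965% ± 0.0215 in AT1 and 0.952% ± 0.0397 in AT10. Chaperones gave most of it, with a summed level between 1987 and 2265 FPKM, against 179 to 343 FPKM for the PERK-ATF4 genes, 212 to 311 FPKM for the XBP1 genes and 103 to 127 FPKM for the ATF6 and ERAD genes. The highest of the 12 libraries was under 1.5 times the lowest for 14 genes and at least 2 times the lowest for 8, namely Sdf2l1, Atf4, Atf3, Ddit3, Trib3, Chac1, Dnajb9 and Derl2. On the scale of log2(FPKM + 1), the median SD within a group was 0.18 for the UPR genes and 0.17 for all 11611 records tested. Xbp1 had the smallest at 0.050 and Chac1 the largest at 1.14. A change in the share of a cell type and a change of RNA per cell cannot be told apart in such bulk libraries.

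**Figure D1:**
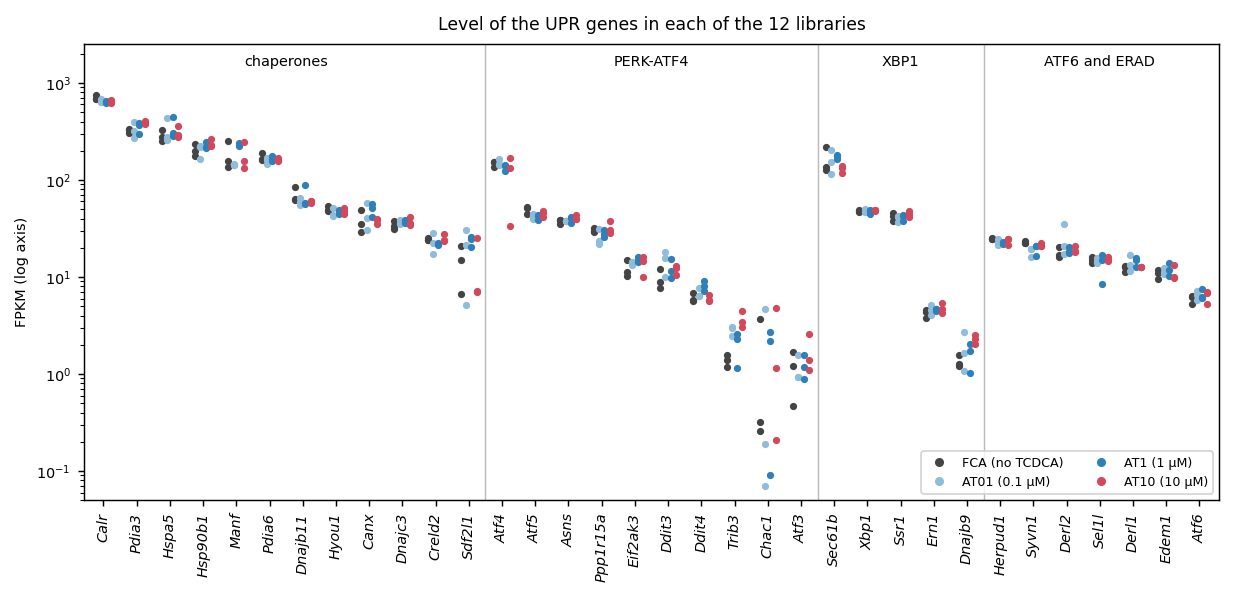
FPKM of the 34 UPR genes on a log axis, 1 point per library and 1 colour per group, ordered by branch and by mean level. The points of most genes lie on top of each other in all 4 groups, and Chac1 and Sdf2l1 spread widest within a group.

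The libraries bore the markers of their labelled cell type. Of 15 fibroblast markers, 13 had a record, all above 1 FPKM on average, and they summed to between 7181 and 8924 FPKM per library. By group the sums ran from 8497 to 8924 FPKM in FCA, 7906 to 8529 in AT01, 8603 to 8727 in AT1 and 7181 to 8844 in AT10. Endothelial markers summed to between 0.25 and 0.47 FPKM, with none of 8 reaching a mean of 1 and 1 at 0 in every library. Of 10 macrophage markers, 6 had a record, and they summed to between 5.89 and 22.1 FPKM, most of it Cd14. Cd68 had a mean of 2.13 FPKM, and Csf1r, Adgre1, Lyz2 and Fcer1g had means under 1 FPKM. Ptprc, Itgam, Cd163 and Tyrobp had no record under these symbols. Markers of smooth muscle and pericytes gave 48.8 to 71.5 FPKM, adipocyte markers 109 to 136 FPKM and chondrocyte markers 4.76 to 10.2 FPKM. None of the marker genes passed the adjusted p of 0.05 in the 7 comparisons below, and their part in the values below was not tested. Summed FPKM per library ran from 284210 to 309696, and a library's mean correlation with the other 11 libraries lay between 0.935 and 0.946. The number of reads behind a value cannot be read from FPKM given to 2 decimals.

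TCDCA at the highest dose left the UPR genes without a change that passed the test. In AT10 against FCA, 0 of the 34 genes reached a Benjamini-Hochberg adjusted p under 0.05 with limma (0.172% of all records did), and an F test without moderation also gave 0. At an unadjusted p under 0.05 stood 3 genes, all higher in AT10 (8.82%, against 11.9% of all records). These were Trib3, Dnajb9 and Pdia3. The groups did not overlap for 7 of the 34 genes, 20.6%, and for 19.9% of all records. The median log2 fold change was 0.04 over the 34 genes and -0.01 over all records.

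TCDCA at 1 µM gave 0 genes at the adjusted p as well (0.0947% of all records). Ddit4 was higher, and Atf5, Creld2 and Herpud1 were lower, at an unadjusted p under 0.05, which is 4 of 34 or 11.8% against 11% of all records. Groups did not overlap for 6 genes (17.6%, against 19.9% of all records), and the median log2 fold change was 0.11 against 0.02. At 0.1 µM again 0 genes passed (0.0947% of all records). Trib3 was higher and Syvn1 lower at an unadjusted p under 0.05 (5.88%, against 6.6%), 3 genes did not overlap (8.82%, against 14%), and the median was 0.01 against 0.00 for all records.

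With the 9 TCDCA libraries of the 3 doses set against the 3 FCA libraries, 0 genes passed the adjusted p (0.0258% of all records did). An unadjusted p under 0.05 was reached by Trib3 and Ddit3, higher with TCDCA, and by Atf5, Calr and Syvn1, lower, 5 of 34 or 14.7% against 12% of all records. Only for Syvn1 among the 34 did no TCDCA library overlap with FCA (2.94%, against 2.86%). The criterion of the study, a log2 fold change over 1 in size with an unadjusted p under 0.05, was applied to FPKM + 1 and was met by 0 UPR genes in each of the 7 comparisons. In AT10 this depends on the added 1 for Trib3, whose log2 fold change was 1.32 with 0.1 added. Over the alternatives that kept all libraries, Trib3 reached at most 0.98 in AT01 and 0.92 over all TCDCA libraries. As a ratio of mean FPKM, Trib3 was 2.63 times FCA in AT10, 2.04 times in AT01 and 2.04 times over all TCDCA libraries. Of all records the criterion was met by 0.706% in AT10, 0.62% in AT1 and 0.758% in AT01 against FCA. It was met by 0.594% and 0.672% in AT10 against the lower doses AT1 and AT01. In AT1 against AT01 the share was 0.568%, and in TCDCA against FCA 0.491%. The F test over the 4 groups gave 0 genes at the adjusted p (0.0431% of all records) and 2, Trib3 and Ddit4, at an unadjusted p under 0.05 (5.88%, against 8.57%). In the fits against FCA the median UPR gene had a 95% interval that reached 0.26 to 0.31 to each side on the log2 scale. All 3 doses were compared with the same 3 FCA libraries.

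**Figure D2:**
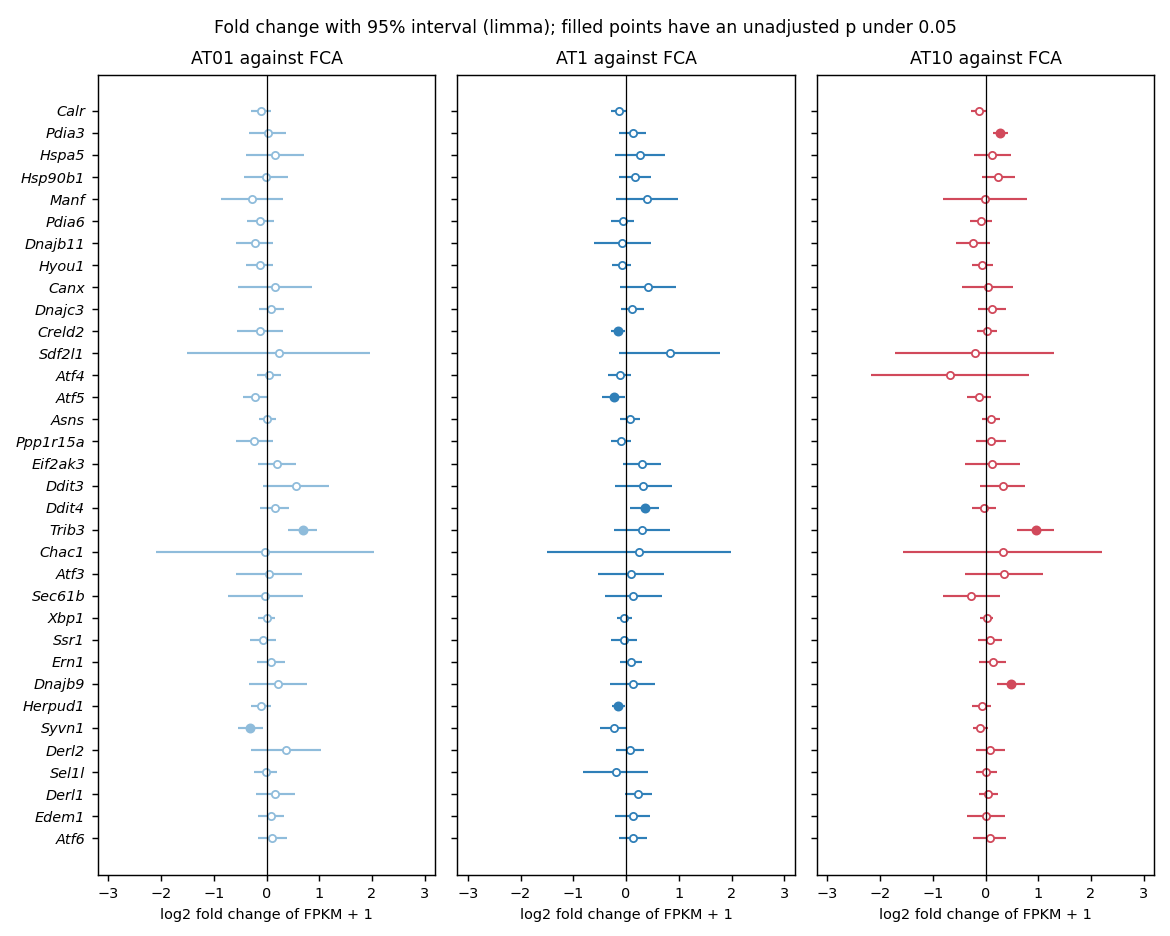
Log2 fold change of FPKM + 1 with its 95% interval (limma) for each of the 34 UPR genes, in AT01, AT1 and AT10 against FCA, ordered by branch. Most intervals cross 0, and the filled points are the 9 gene and dose pairs with an unadjusted p under 0.05, of which none passed after adjustment.

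Among the chaperones, BiP (Hspa5), the main chaperone of the ER and the usual readout of the UPR, was abundant in every library. Hspa5 stood at 276, 252 and 326 FPKM in FCA, 439, 279 and 258 in AT01, 287, 445 and 307 in AT1 and 278, 292 and 364 in AT10. The highest values were in 1 library of AT1 and 1 of AT01, and every group overlapped with every other. The log2 fold change of TCDCA against FCA was 0.18 (SE 0.17, 95% interval -0.19 to 0.56), and 3 of 9 TCDCA libraries lay above all FCA libraries (adjusted p = 0.684). Hsp90b1 (GRP94), the ER member of the HSP90 family and like Hspa5 a holder of ERSE letters, lay between 163 and 262 FPKM, with the lowest value in the same AT01 library in which Hspa5 reached 439 FPKM.

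Calreticulin (Calr) and calnexin (Canx) hold newly made glycoproteins until they fold, and Pdia3 forms their disulfide bonds. Calr stood at 684, 679.9 and 744 FPKM in FCA, 687, 636 and 636 in AT01, 625, 645 and 641 in AT1 and 673, 636 and 627 in AT10, with 8 of the 9 TCDCA libraries below all FCA libraries. Its difference was small (log2 fold change -0.12, SE 0.045, adjusted p = 0.351), and without FCA replicate 3 it was -0.080, at an unadjusted p over 0.05. Canx stood at 34.8, 29.1 and 49.0 FPKM in FCA, 30.4, 40.5 and 57.3 in AT01, 52.0, 41.4 and 56.0 in AT1 and 34.9, 38.6 and 39.97 in AT10. All 3 AT10 libraries lay below all 3 AT1 libraries, while FCA and AT01 overlapped with both (AT10 against AT1, log2 fold change -0.38, SE 0.13, adjusted p = 0.748).

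Pdia3 stood at 325, 331 and 306 FPKM in FCA, 271, 323 and 393 in AT01, 370.3, 300.5 and 383 in AT1 and 385, 402 and 381 in AT10. The AT10 libraries were the closest together and lay above all FCA libraries, whereas AT01 ran from under the lowest FCA value to over the middle AT10 value. For AT10 against FCA the log2 fold change was 0.28 (SE 0.056), with adjusted p = 0.175. The same fold change was 0.12 (SE 0.11) for AT1 and 0.019 (SE 0.14) for AT01. Pdia6, another protein disulfide isomerase, lay between 146 and 192 FPKM over the 12 libraries, with log2 fold changes of -0.12, -0.061 and -0.089 in AT01, AT1 and AT10 against FCA.

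Manf, a protein of the ER that is secreted under stress, was the one UPR gene that passed the adjusted threshold in a comparison, between doses. It stood at 156, 254 and 135 FPKM in FCA, 143, 141 and 148 in AT01, 227, 240.5 and 225 in AT1 and 246, 134 and 156 in AT10. All 3 AT1 libraries were high and all 3 AT01 libraries were low, while FCA and AT10 each had 1 high library and 2 low ones. Over the 12 libraries, 7 lay between 134 and 156 FPKM and 5 between 225 and 254 FPKM, with none between these ranges. In AT1 against AT01 it was 1 of 34 genes called (0.129% of all records), with a log2 fold change of 0.68 (SE 0.062, adjusted p = 0.043) and an exact permutation p of 0.1, the smallest that 3 libraries against 3 allow. The adjusted p lay between 0.0365 and 1 over the alternatives that kept all libraries, and was 0.0691 with no filter on low values and 1 with 1 fit over all 12 libraries. Without any 1 of the 6 libraries it lay between 0.0687 (without AT01 replicate 3) and 0.201 (without AT1 replicate 1). Against FCA the log2 fold change of Manf was -0.28 (SE 0.24) for AT01, 0.40 (SE 0.24) for AT1 and -0.017 (SE 0.32) for AT10.

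Sdf2l1, a partner of Dnajb11 in the BiP system, spread most among the chaperones. It stood at 20.6, 15.0 and 6.71 FPKM in FCA, 30.5, 21.1 and 5.18 in AT01, 20.4, 25.8 and 24.9 in AT1 and 25.5, 7.16 and 6.99 in AT10. FCA, AT01 and AT10 each held both high and low libraries, and the 3 AT1 libraries were all high. Its log2 fold change in AT10 against AT1 was -1.03 (SE 0.49, adjusted p = 0.748), and without AT10 replicate 1 it was -1.61 (adjusted p = 0.0339). Creld2, a secreted factor induced by ER stress, stood at 24.3, 24.2 and 25.1 FPKM in FCA, 28.6, 22.5 and 17.4 in AT01, 21.3, 22.0 and 22.4 in AT1 and 23.7, 23.8 and 27.4 in AT10. The AT1 libraries lay just under FCA and AT10, and AT01 held both the highest and the lowest of the 12 values (AT1 against FCA, log2 fold change -0.16, SE 0.052, adjusted p = 0.428).

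The other 3 chaperone genes gave no difference that passed the test. Hyou1, which exchanges the nucleotide on BiP, lay between 42.0 and 53.5 FPKM, Dnajc3 (p58IPK) between 31.0 and 41.1 FPKM, and Dnajb11 (ERdj3) between 55.1 and 89.0 FPKM. Dnajc3 has a second record that was 0 in some libraries and reached 15.9 FPKM in others, so its level is uncertain where the counting could split reads between records. The second records of Asns, Canx, Derl1, Ppp1r15a and Ssr1 stayed at or under 3.37 FPKM. The AT10 libraries of Dnajb11 all lay below FCA, with a log2 fold change of -0.24 (SE 0.13, adjusted p = 0.513). Over the 12 chaperones the median log2 fold change was -0.06 in AT01, 0.12 in AT1 and 0.0025 in AT10, against 0.00, 0.02 and -0.01 over all records. Their summed level was 2095 ± 71.3 FPKM (SD, n = 3) in FCA, 2038 ± 68.0 in AT01, 2205 ± 72.1 in AT1 and 2145 ± 71.8 in AT10. The AT01 sums ran from 1987 to 2115 FPKM and the AT1 sums from 2125 to 2265 FPKM. Manf is part of these sums, at 141 to 148 FPKM in AT01 and 225 to 240.5 FPKM in AT1. The mean of Manf was 144 FPKM in AT01 and 231 FPKM in AT1, which is part of the distance between the mean sums. In AT1 against AT01 the log2 fold change was over 0 for 10 of the 12 chaperones (83.3%, against 55.9% of all records). A difference of the sums was not tested.

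**Figure D3:**
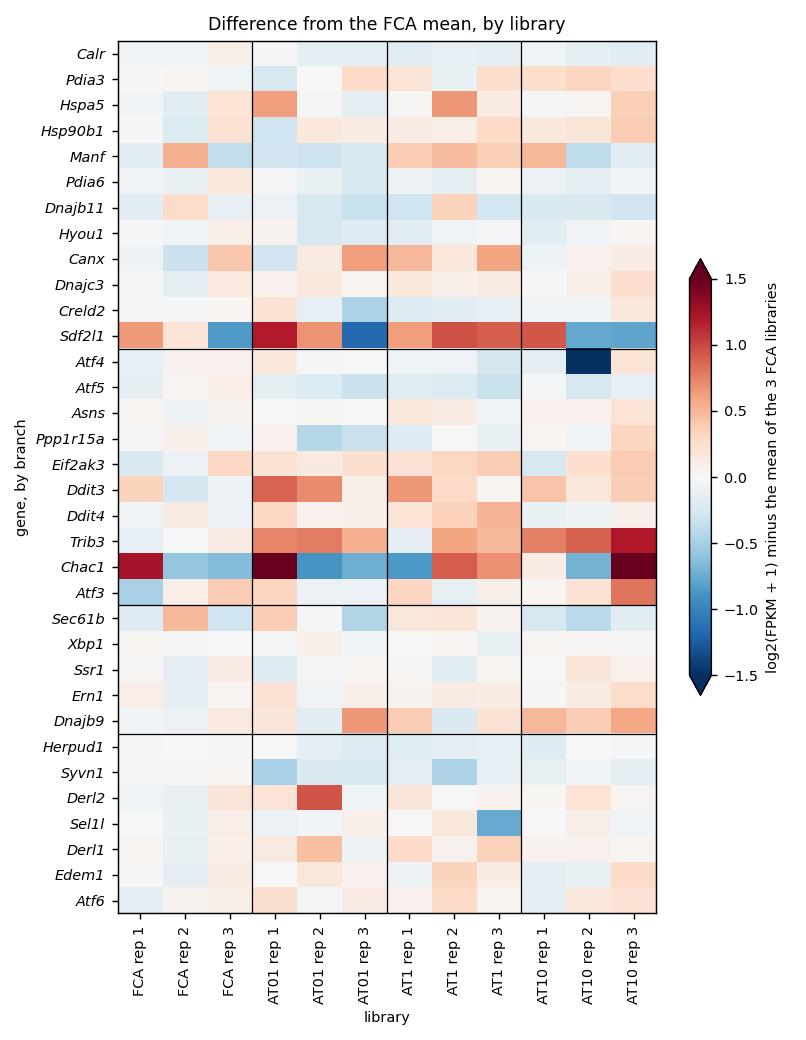
Log2(FPKM + 1) of the 34 UPR genes in each of the 12 libraries minus the mean of the 3 FCA libraries, with branches parted by horizontal and groups by vertical lines. No group forms a block of 1 colour across a branch, single cells stand out (Atf4 in AT10 replicate 2, Derl2 in AT01 replicate 2, Sel1l in AT1 replicate 3), and the Trib3 row is red in 8 of the 9 TCDCA libraries.

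In the PERK-ATF4 branch the kinase and its factor gave no difference that passed the test. Eif2ak3 (PERK) stood at 10.2, 11.2 and 15.1 FPKM in FCA, 14.2, 13.3 and 14.4 in AT01, 14.2, 15.1 and 15.9 in AT1 and 10.0, 14.6 and 15.9 in AT10. FCA spanned nearly the whole range, and all groups overlapped with it (TCDCA against FCA, log2 fold change 0.21, SE 0.13, adjusted p = 0.541). Without FCA replicate 1 this was 0.10, and without FCA replicate 3 it was 0.36, at an unadjusted p under 0.05. Atf4, the factor whose translation PERK lets through, stood at 135, 154 and 153 FPKM in FCA, 164, 144 and 147 in AT01, 140.2, 142 and 123 in AT1 and 134, 33.7 and 169.9 in AT10. AT10 replicate 2 stood far below the other 11 libraries, which lay between 123 and 169.9 FPKM. With that library the log2 fold change of TCDCA against FCA was -0.25 (SE 0.39) and without it -0.02, and the adjusted p was 0.82 with all libraries. AT1 lay below AT01 without overlap (-0.17, SE 0.09, adjusted p = 1), and of all records 8.6% did not overlap in this comparison against 2 of the 34 genes, 5.88%.

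Trib3, a pseudokinase gene switched on by ATF4 and CHOP, had the smallest limma p of the 34 genes in AT10, in AT01 and in all TCDCA libraries against FCA. It stood at 1.19, 1.38 and 1.58 FPKM in FCA, 2.96, 3.04 and 2.48 in AT01, 1.14, 2.58 and 2.32 in AT1 and 3.03, 3.40 and 4.48 in AT10. All AT01 and AT10 libraries and 2 of the 3 AT1 libraries lay above the highest FCA library, and AT1 replicate 1 lay below the lowest. The log2 fold change was 0.95 (SE 0.14, adjusted p = 0.107) in AT10, 0.68 (SE 0.11, adjusted p = 0.285) in AT01 and 0.31 (SE 0.21, adjusted p = 0.59) in AT1. For the 9 TCDCA libraries together it was 0.65 (SE 0.21, adjusted p = 0.314), higher than every FCA library in 8 of 9, with an unadjusted exact permutation p of 0.0182. The same exact test gave unadjusted p of 0.0136 for Calr, 0.0182 for Atf5 and 0.0364 for Syvn1, all lower with TCDCA. The levels of Trib3 were low, and the log2(FPKM + 1) scale understates the change of a low gene. With 0.1 added in place of 1 the AT10 log2 fold change of Trib3 was 1.32. Between doses Trib3 was higher in AT10 than in AT1 (0.64, SE 0.23, adjusted p = 0.748), but by 0.42 without AT1 replicate 1, at an unadjusted p over 0.05.

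Ddit3 (CHOP), a factor of stress-induced death, stood at 12, 7.65 and 8.82 FPKM in FCA, 17.9, 15.8 and 9.95 in AT01, 15.2, 11.6 and 9.66 in AT1 and 12.9, 10.6 and 12.3 in AT10. The group means of the 3 doses were all over that of FCA, but each dose overlapped with FCA and the highest values were in AT01. The log2 fold change of TCDCA against FCA was 0.40 (SE 0.18, adjusted p = 0.412), with 5 of 9 libraries above all FCA libraries. Without FCA replicate 2 it was 0.27, at an unadjusted p over 0.05. The order of the group means, AT01 over AT1 over AT10 over FCA, held no pair of neighbours that differed beyond the spread, since each overlapped with the next.

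Ddit4 (REDD1), which restrains mTORC1, stood at 5.83, 6.80 and 5.65 FPKM in FCA, 7.79, 6.42 and 6.43 in AT01, 7.15, 7.98 and 9.04 in AT1 and 5.61, 5.73 and 6.46 in AT10. AT1 lay above FCA and above AT10 without overlap, and AT10 lay within the range of FCA apart from its lowest library. Against FCA the log2 fold change in AT1 was 0.35 (SE 0.11, adjusted p = 0.428), and AT10 differed from AT1 by -0.38 (SE 0.10, adjusted p = 0.669). Atf5, a factor translated like ATF4 under stress, stood at 44.8, 50.8 and 53.1 FPKM in FCA, 44.6, 42.9 and 39.3 in AT01, 43.6, 42.9 and 39.1 in AT1 and 48.4, 41.7 and 45.4 in AT10. Of the 9 TCDCA libraries 7 lay below all FCA libraries, those of AT01 and AT1 without exception and 1 of AT10. For TCDCA against FCA the log2 fold change was -0.20 (SE 0.072, adjusted p = 0.348), and without FCA replicate 3 it was -0.15, at an unadjusted p over 0.05.

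Atf3, an immediate stress factor and the lowest gene of the branch, stood at 0.47, 1.2 and 1.68 FPKM in FCA, 1.57, 0.93 and 0.94 in AT01, 1.57, 0.88 and 1.19 in AT1 and 1.10, 1.38 and 2.58 in AT10. FCA covered the values of every TCDCA library except AT10 replicate 3, which lay above it. Chac1, which breaks down glutathione, is given in full because of its spread, a choice made after its values were seen. It stood at 3.65, 0.32 and 0.26 FPKM in FCA, 4.73, 0.07 and 0.19 in AT01, 0.09, 2.72 and 2.17 in AT1 and 1.14, 0.21 and 4.83 in AT10. Every group held both high and low libraries, with SDs from 1.39 to 2.66 FPKM around group means from 1.41 to 2.06 FPKM (n = 3 in each). Asns, the asparagine synthetase that ATF4 controls, lay between 35.6 and 43.4 FPKM, and Ppp1r15a (GADD34), which undoes the work of PERK, between 22.1 and 37.8 FPKM. Asns in AT10 lay above FCA without overlap, by 0.11 on the log2 scale (SE 0.07, adjusted p = 0.56). Over the 10 genes of the branch the median log2 fold change was 0.05 in AT01, 0.17 in AT1 and 0.12 in AT10.

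**Figure D4:**
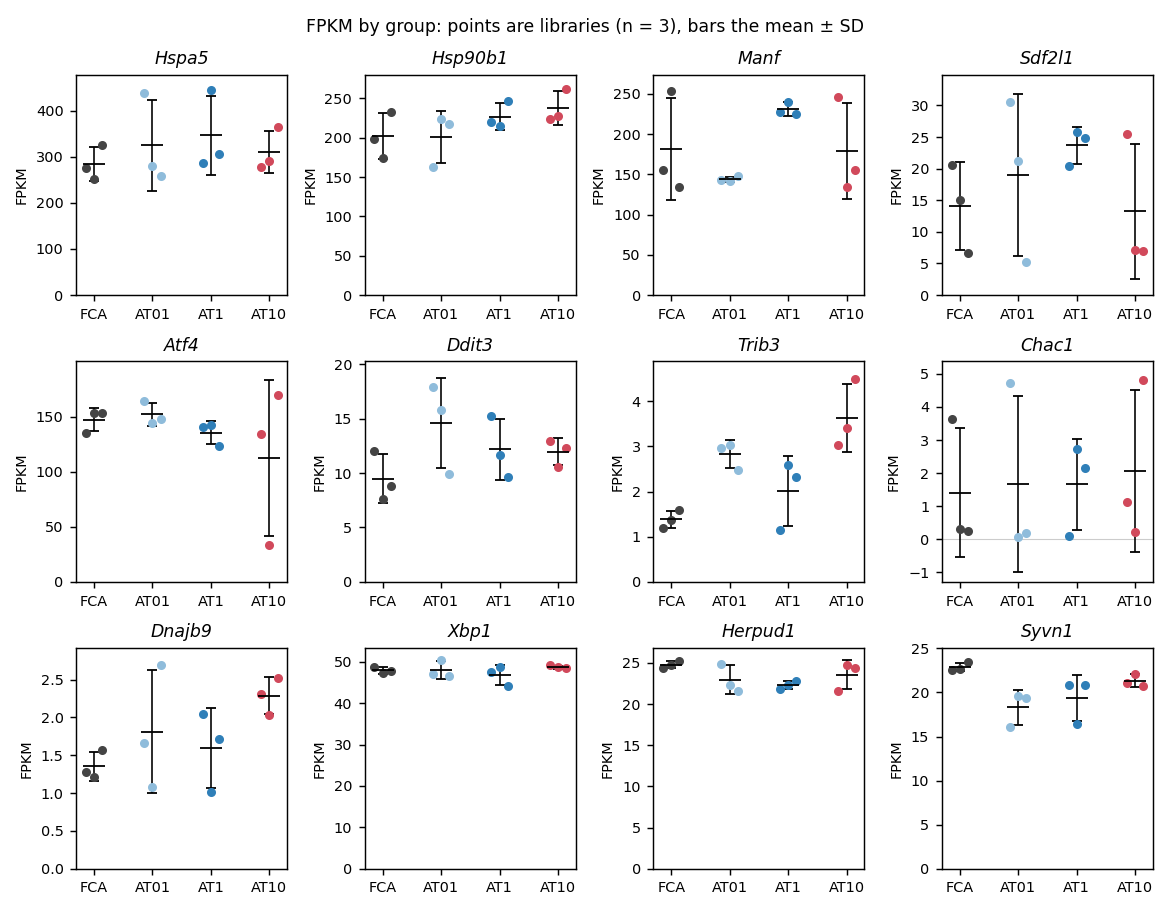
FPKM of 12 UPR genes by group on linear axes that start at 0 or below, with 1 point per library and bars for the mean ± SD (n = 3). Manf is high in all 3 AT1 libraries and low in all 3 AT01 libraries, Trib3 lies above FCA in 8 of 9 TCDCA libraries, 1 AT10 library of Atf4 is at 33.7 FPKM, and Xbp1 is level.

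The XBP1 branch had the smallest median SD within a group of the 4 branches, 0.12 on the log2(FPKM + 1) scale. Xbp1 itself stood at 48.8, 47.2 and 47.8 FPKM in FCA, 47.0, 50.4 and 46.5 in AT01, 47.6, 48.8 and 44.1 in AT1 and 49.1, 48.7 and 48.4 in AT10. All groups overlapped, and only 0.913% of the records tested had a within-group SD as small. Its log2 fold change in TCDCA against FCA was -0.0038 (95% interval -0.10 to 0.10, adjusted p = 0.978). Ern1 (IRE1), the sensor that splices it, stood at 4.6, 3.79 and 4.37 FPKM in FCA, 5.10, 4.06 and 4.52 in AT01, 4.42, 4.71 and 4.68 in AT1 and 4.30, 4.67 and 5.36 in AT10. Of the 9 TCDCA libraries, 5 lay above all FCA libraries, and none below (log2 fold change 0.10, SE 0.074, adjusted p = 0.593).

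Dnajb9 (ERdj4), a BiP co-chaperone that XBP1 controls, stood at 1.28, 1.21 and 1.57 FPKM in FCA, 1.66, 1.08 and 2.69 in AT01, 2.05, 1.02 and 1.72 in AT1 and 2.31, 2.03 and 2.52 in AT10. The AT10 libraries all lay above FCA, while AT01 and AT1 each reached from under the lowest FCA library to over the highest. In AT10 against FCA the log2 fold change was 0.48 (SE 0.11, adjusted p = 0.191), and it was 0.12 (SE 0.17) in AT1 and 0.22 (SE 0.22) in AT01. Sec61b, a subunit of the channel through which proteins enter the ER, stood at 137, 220.5 and 128 FPKM in FCA, 203, 155 and 116 in AT01, 177, 179 and 163 in AT1 and 133, 119 and 139 in AT10. AT10 lay below AT1 without overlap (-0.41, SE 0.081, adjusted p = 0.408), and FCA and AT01 overlapped with both. Ssr1, a partner of that channel, lay between 36.6 and 47.7 FPKM in the 12 libraries.

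In the ATF6 and ERAD group, Atf6 stood at 5.31, 6.21 and 6.35 FPKM in FCA, 7.17, 5.81 and 6.57 in AT01, 6.24, 7.49 and 6.12 in AT1 and 5.27, 6.78 and 7.06 in AT10. Each dose overlapped with FCA, and the log2 fold change of TCDCA against FCA was 0.11 (SE 0.091, adjusted p = 0.654), or 0.037 without FCA replicate 1. Syvn1 (HRD1), the ubiquitin ligase of ERAD, stood at 22.5, 22.6 and 23.4 FPKM in FCA, 16.1, 19.6 and 19.4 in AT01, 20.8, 16.4 and 20.9 in AT1 and 21.1, 22.1 and 20.8 in AT10. All 9 TCDCA libraries lay below the lowest FCA library, and the AT10 mean was the nearest of the 3 doses to that of FCA. The log2 fold change was -0.22 (SE 0.093, adjusted p = 0.389) for TCDCA, and -0.31 (SE 0.095), -0.24 (SE 0.11) and -0.10 (SE 0.057) for AT01, AT1 and AT10. Without any 1 of the FCA libraries the unadjusted p of the TCDCA comparison was over 0.05.

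Herpud1, which gathers the ERAD machine, stood at 24.4, 24.8 and 25.2 FPKM in FCA, 24.9, 22.4 and 21.6 in AT01, 21.8, 22.4 and 22.8 in AT1 and 21.6, 24.7 and 24.4 in AT10. AT1 lay below FCA without overlap (-0.15, SE 0.05, adjusted p = 0.428), and AT01 and AT10 each had a library within the FCA range. Sel1l, the adaptor of Syvn1, lay between 13.9 and 16.9 FPKM in 11 libraries and at 8.54 FPKM in AT1 replicate 3. Derl2, a channel component of ERAD, lay between 16.2 and 20.7 FPKM in 11 libraries and at 35.2 FPKM in AT01 replicate 2. These values were held by single libraries of groups whose other libraries were near FCA. Derl1 ranged from 11.2 to 17.0 FPKM, and Edem1, which picks misfolded glycoproteins for ERAD, from 9.64 to 13.9 FPKM. The median log2 fold change of the 7 genes was 0.08 in AT01, 0.07 in AT1 and 0.02 in AT10.

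Between doses, Manf was the one UPR gene that passed the adjusted p. AT10 against AT1 gave 0 genes at the adjusted p (0.258% of all records), 4 at an unadjusted p under 0.05 (11.8%, against 6.46%), which were Trib3, higher in AT10, and Canx, Ddit4 and Sec61b, lower, and 5 without overlap (14.7%, against 13.9%). AT10 against AT01 gave 0 at the adjusted p (0.0689% of all records), 0 at an unadjusted p under 0.05 (4.97% of all records) and 2 without overlap (5.88%, against 11.1%), Asns and Syvn1, both higher in AT10. AT1 against AT01 gave Manf at both thresholds, 2.94% of the genes against 3.43% of all records at an unadjusted p under 0.05.

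The genes with ERSE letters in their promoters were followed as a group. Over Calr, Canx, Creld2, Dnajc3, Hsp90b1, Hspa5 and Xbp1 the median log2 fold change against FCA was 0.00 in AT01, 0.12 in AT1 and 0.04 in AT10. The values ran from -0.12 (Calr) to 0.24 (Hsp90b1) in AT10, from -0.16 (Creld2) to 0.42 (Canx) in AT1 and from -0.13 (Creld2) to 0.16 (Canx) in AT01. A log2 fold change over 0 was held by 6 of the 7 genes in AT10, all but Calr, by 4 in AT1 and by 4 in AT01. Of all records 48.2%, 53.2% and 50.3% were over 0 in that order. None of the 7 genes passed the adjusted p in any of the 7 comparisons. Of the 3 genes with CARE letters, Trib3 had log2 fold changes of 0.68, 0.31 and 0.95 in AT01, AT1 and AT10 against FCA. Those of Chac1 were -0.028, 0.24 and 0.32 (SE 0.83, 0.70 and 0.76), and those of Herpud1 were -0.11, -0.15 and -0.074. Herpud1 also holds ERSE-II letters, as do Dnajb11 and Hyou1. In AT01, AT1 and AT10 against FCA the log2 fold changes were -0.22, -0.074 and -0.24 for Dnajb11. For Hyou1 they were -0.13, -0.082 and -0.064. None of the genes with CARE or ERSE-II letters passed the adjusted p in these comparisons.

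Levels of UPR genes were also compared in pairs across the 12 libraries, on log2(FPKM + 1), 8 pairs in all. Hspa5 and Hsp90b1 gave Pearson's r = -0.093 (permutation p = 0.786, adjusted p = 0.786) and Spearman's rho = 0.266 (permutation p = 0.404, adjusted p = 0.462). Without AT1 replicate 2 and AT01 replicate 1, the libraries farthest from the median of Hspa5, r was 0.827. In the other 10 libraries a higher Hspa5 tended to go with a higher Hsp90b1, and in those 2 Hspa5 was high and Hsp90b1 was not. These 10 libraries were picked by their Hspa5 values, and their r was not tested. With the group means removed from all 12 libraries r was -0.254. The other 7 pairs had r between -0.256 (Xbp1 with Dnajb9) and 0.388 (Hspa5 with Asns), with an adjusted permutation p of 0.597 in each, and rho between -0.329 and 0.469, with adjusted permutation p between 0.462 and 0.732. Without the 2 libraries farthest from the median of the first gene, r lay between -0.273 (Hspa5 with Sdf2l1) and 0.637 (Hspa5 with Asns).

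**Figure D5:**
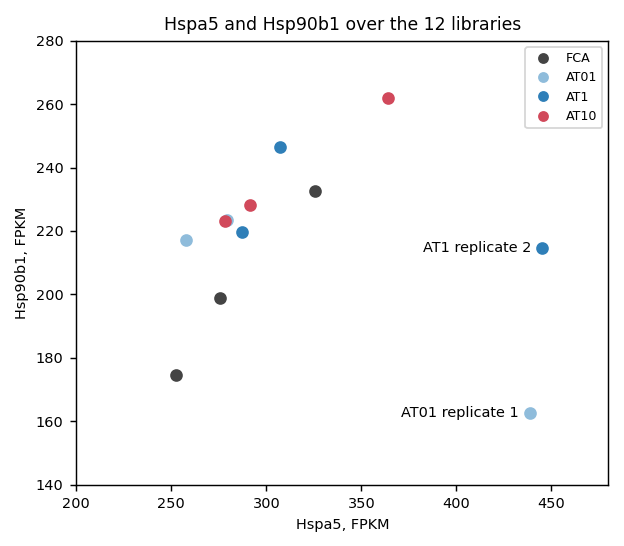
Hsp90b1 against Hspa5, both in FPKM, with 1 point per library and 1 colour per group, on axes that do not start at 0. In 10 libraries the points tend to climb together, which was not tested. AT1 replicate 2 and AT01 replicate 1 have 445 and 439 FPKM of Hspa5 with 215 and 163 FPKM of Hsp90b1.

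Beyond the 35 symbols, further genes of the same processes were counted from lists. Of 24 other folding factors, 30 other PERK-ATF4 genes, 35 other genes of translocation and glycosylation and 28 other genes of ATF6 and ERAD, 0 passed the adjusted p in any of the 7 comparisons with limma. In TCDCA against FCA, an unadjusted p under 0.05 was reached by 4, 1, 6 and 6 of them in that order, where 12% of all records reached it. The folding factors of smallest p were Dnajc10, an ER reductase (log2 fold change 0.28, SE 0.087, adjusted p = 0.311), and Hspa13 (0.34, SE 0.13, adjusted p = 0.356), both higher with TCDCA. In the PERK-ATF4 list Eif4ebp1, a brake on translation that ATF4 induces, had a log2 fold change of -0.91 (SE 0.35, adjusted p = 0.362) and Iars1, the isoleucine tRNA synthetase, 0.11 (SE 0.056, adjusted p = 0.456). Eif4ebp1 stood at 59.8, 19.93 and 54.1 FPKM in FCA, at 50.7 FPKM in AT01 replicate 3 and between 17 and 22.01 FPKM in the other 8 libraries, so that its fold change rests on 2 FCA libraries. Sec31a, a coat protein of vesicles that leave the ER, and Ddost, a subunit of the oligosaccharyltransferase, had -0.21 (SE 0.059) and -0.24 (SE 0.089). Ddost stood at 145, 179 and 175 FPKM in FCA and at 171 FPKM in AT1 replicate 2. The other TCDCA libraries lay between 126 and 147 FPKM, so the fold change of Ddost rests mostly on 2 FCA libraries. Atf6b, the relative of ATF6, and Bag6, which guards hydrophobic proteins in the cytosol, had -0.22 (SE 0.072) and -0.31 (SE 0.10). These last 4 were lower with TCDCA and had adjusted p between 0.306 and 0.355. The median log2 fold change of the lists was 0.06, -0.01, 0.01 and -0.03, and 0.00 over all records.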

How the data were processed

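Poly(A) RNA of cultured FLS from AA rats was sequenced as 12 libraries, 3 in each of the FCA, AT01, AT1 and AT10 groups. The authors deposited FPKM with 2 decimals for 22442 gene records, made with HISAT2 for alignment and with StringTie and Ballgown for expression, and the submitters' processing notes also name cutadapt and edgeR. The genome build is not given in the sources used here, and no scaling between libraries is stated. The labels name another sequencer and RNA input than the study's methods do. The smallest value above 0 is 0.01 FPKM in every library, which is the rounding step, so read counts cannot be recovered, the depth of a value is unknown and no counting interval is given.

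Values were taken as log2(FPKM + 1). Of the records, 11611 averaged 1 FPKM or more and entered limma 3.58.1 (R 4.3.3; lmFit, then eBayes with trend), 2 groups at a time, with a Benjamini-Hochberg adjustment over all of them. A fit of the 9 TCDCA libraries against FCA, an F test over the 4 groups and exact permutation tests (two-sided) were added, and the smallest exact p is 0.1 for 3 against 3 libraries and 0.00455 for 9 against 3. Correlations used 100000 resamples in Python 3.11.15 with SciPy 1.17.1, NumPy 2.4.6 and pandas 2.3.3, and figures Matplotlib 3.10.9. The tests were tried on simulated data.

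The members and the lists were chosen with earlier results of these data known. Values in every library are given for Hspa5, Xbp1, Ern1, Atf6, Eif2ak3, Atf4 and Ddit3, for members under an adjusted or unadjusted p of 0.05 in any comparison, and for the highest and lowest member of each branch. Genes whose 12 libraries lay at 2 separate levels (a gap of 1 or more in log2, wider than the range inside either level, with at least 2 libraries in each) were to be named too. None of the 34 met this, while 525 records (4.52%) did, and the gap of Atf4 sets apart a single library. Of the further lists, the 2 genes of smallest p in TCDCA against FCA are named. Chac1 was added after its values were seen. Alternatives were no filter or a filter of 10 FPKM, a pseudocount of 0.1, 1 fit over 12 libraries, scaling by the median of ratios, summing records of 1 name, an F test without moderation, the replicate number as a block and each library left out in turn.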

Additional observations from a re-analysis of the deposited data

Results flagged for a closer look

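Over the 9 TCDCA libraries, 7 of the 34 UPR genes had 1 library far from the rest by Dixon's test, 20.6%, where chance flags about 1 in 20 groups and the same test flags 11.9% of the 11611 records. The lowest values were Hsp90b1 at 162.7 FPKM in AT01 replicate 1, Eif2ak3 at 10.04 FPKM in AT10 replicate 1, Atf4 at 33.7 FPKM in AT10 replicate 2 and Sel1l at 8.54 FPKM in AT1 replicate 3. The highest were Dnajb11 at 89.0 FPKM in AT1 replicate 2, Atf3 at 2.58 FPKM in AT10 replicate 3 and Derl2 at 35.2 FPKM in AT01 replicate 2. These 9 libraries span 3 doses, and the FCA libraries were not part of the test. The nearest FCA value was 174.6 FPKM for Hsp90b1, 10.23 for Eif2ak3, 134.8 for Atf4 and 13.93 for Sel1l. For Dnajb11, Atf3 and Derl2 it was 85.1, 1.68 and 20.43 FPKM. The 7 values fall in 7 different libraries. Without AT10 replicate 2 the log2 fold change of Atf4 in TCDCA against FCA was -0.02 in place of -0.25.

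Manf differed between the TCDCA doses, with a log2 fold change of 0.68 in AT1 against AT01 (limma, adjusted p = 0.043, higher in 3 of 3 libraries). The adjusted p was between 0.0365 and 1 over the alternatives with all libraries, and without AT01 replicate 3 and AT1 replicate 1 it was 0.0687 and 0.201.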

How the results depend on the processing

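The number of UPR genes at an adjusted p under 0.05 was 0 in every comparison but AT1 against AT01 and stayed 0 under all alternatives with all 12 libraries. In AT1 against AT01 it was 1 (Manf), and it was 0 in the single fit of all 12 libraries, without a filter, with the F test without moderation and with the replicate block, and from 0 to 0 when each library was left out in turn. A fit with 5 libraries has less to estimate the spread from, and otherwise the cause was not tested. In AT10 against AT1 leaving out 1 library gave 0 to 1, the 1 being Sdf2l1 without AT10 replicate 1. At an unadjusted p under 0.05 the counts moved more. Over the alternatives with all libraries they lay between 1 and 5 in AT10, 4 and 5 in AT1, 1 and 4 in AT01 and 3 and 6 in TCDCA against FCA, between 2 and 5 in AT10 against AT1, 0 and 1 in AT10 against AT01 and 1 and 3 for the F test, and were 1 in AT1 against AT01. With 1 library left out they lay, in the same order, between 3 and 4, 2 and 4, 2 and 4, 2 and 5, 2 and 5, 0 and 4, 2 and 4, and 1 and 2.

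The correlation of deviations between libraries of the same replicate number lay between -0.105 and 0.0942 over 18 pairs. Between libraries of different numbers it lay between -0.154 and 0.149 over 36 pairs, a range that holds the first. With so few libraries per group these values cannot show whether the libraries were paired. With the replicate block, UPR genes called were 0 in all comparisons, and over all records the calls went from 20 to 1 in AT10, from 11 to 0 in AT1 and from 11 to 2 in AT01 against FCA, and from 15 to 2 in AT1 against AT01.

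Over 565 values of single genes under the alternatives, 10 changed sign, all for Manf, Sec61b or Xbp1 in TCDCA against FCA, none of which was called. With group means removed, the correlation of Asns with Trib3 was -0.042 in place of 0.292 and that of Ddit3 with Trib3 -0.273 in place of 0.277. The unknown depth limits the low genes most, above all Chac1, Atf3, Trib3 and Dnajb9.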
